A study of Caenorhabditis elegans with 2 samples.

Results

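The C. elegans X chromosome carried 421 of the 5431 peaks in the conservative list of LIN-38 binding sites, in 400 separate regions, and every peak that the list places on X was taken, whatever its height. Another 26 peaks lay on mitochondrial DNA, which leaves 4984 peaks on the 5 autosomes for comparison. Binding was mapped by chromatin immunoprecipitation and sequencing (ChIP-seq) with an antibody against GFP, in whole L4 larvae of strain RW12236 aged 48 hours. In this strain the allele st12236, an insertion made with CRISPR at the lin-38 gene on chromosome II, gives the fusion lin-38::TY1::EGFP::3xFLAG, so LIN-38 is expressed from its own locus with its tags. The 2 samples were biological replicates 1 and 2 of this 1 group. Both came from the same strain, were synchronised by bleaching and starvation as first-stage larvae, and were sheared by sonication. There was no second genotype, treatment or stage, and control libraries were not analysed here. Sex was not recorded, so the number of X copies per cell is not given. Chromatin came from whole animals, and fewer bound cells cannot be told apart from weaker binding in each cell.

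LIN-38 is a nuclear regulator of the synMuv A class, and loss of synMuv A together with synMuv B function lets cells outside the vulva take on vulval fates. The X chromosome of the worm is regulated as a whole: in XX hermaphrodites a condensin-like dosage compensation complex binds X and lowers transcription from it, starting at recruitment sites that hold a short sequence motif. X is also largely silent in the germ line, is poor in genes for basic cell functions and is rich in tRNA genes, which RNA polymerase III transcribes from promoter boxes inside the gene.

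A first look at the letters under the highest X summits shows what the values below refer to. A summit is the single base that the authors' peak caller marked as the top of a peak. Each run below is 121 bases of the forward strand of ce11 (RefSeq's copy of WBcel235), centred on the summit. Capitals in the first 2 groups mark the pattern GCGCNNTTG in either direction, which was picked out by eye from these same summits and is therefore only a description of them. The 4 highest X summits in promoter windows are shown first; the windows of puf-9 and pdi-6 do not hold it.
puf-9, chrX:5841251-5841371: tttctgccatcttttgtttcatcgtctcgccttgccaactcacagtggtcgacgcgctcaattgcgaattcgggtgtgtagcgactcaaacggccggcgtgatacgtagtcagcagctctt
trap-2 and ile-2, chrX:768215-768335: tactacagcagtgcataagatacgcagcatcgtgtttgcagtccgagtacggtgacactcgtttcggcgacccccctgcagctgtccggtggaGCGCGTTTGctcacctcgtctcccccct
pdi-6, chrX:7068522-7068642: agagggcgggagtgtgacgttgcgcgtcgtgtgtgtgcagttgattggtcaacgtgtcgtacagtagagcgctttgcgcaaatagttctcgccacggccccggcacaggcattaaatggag
ZC506.1, chrX:9958772-9958892: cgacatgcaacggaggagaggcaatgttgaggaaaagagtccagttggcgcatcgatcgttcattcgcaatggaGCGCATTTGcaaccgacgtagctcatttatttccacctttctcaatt

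The 2 highest X summits outside promoter windows and away from small RNA genes both lay between genes, and both hold the same pattern.
nearest to tmem-184, chrX:14708314-14708434: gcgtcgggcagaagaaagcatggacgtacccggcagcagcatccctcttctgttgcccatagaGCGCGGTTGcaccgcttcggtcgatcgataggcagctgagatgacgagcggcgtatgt
nearest to F10D7.5, chrX:17392303-17392423: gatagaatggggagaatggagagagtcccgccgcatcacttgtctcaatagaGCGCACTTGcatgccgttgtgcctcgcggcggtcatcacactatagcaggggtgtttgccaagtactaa

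The 2 highest X summits at tRNA genes follow, with the annotated bases of the tRNA gene in capitals. The first lies inside an alanine tRNA gene, the second 9 bp before a glycine tRNA gene.
F15G9.t1 and F15G9.t2, chrX:9743574-9743694: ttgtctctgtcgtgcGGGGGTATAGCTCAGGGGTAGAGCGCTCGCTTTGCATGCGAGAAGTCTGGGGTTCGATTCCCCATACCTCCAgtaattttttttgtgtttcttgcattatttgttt
M02F4.t1 and M02F4.t2, chrX:3036095-3036215: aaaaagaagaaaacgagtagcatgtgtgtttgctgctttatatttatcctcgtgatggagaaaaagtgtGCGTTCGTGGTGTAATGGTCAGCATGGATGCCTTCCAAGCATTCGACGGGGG

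The last 3 are the highest X summits that hold GCGCAGGG, the core of the recruitment motif of dosage compensation, in capitals on whichever strand it lies. They are shown because this core was found at 12 X summits.
nearest to W02H3.3, chrX:11094142-11094262: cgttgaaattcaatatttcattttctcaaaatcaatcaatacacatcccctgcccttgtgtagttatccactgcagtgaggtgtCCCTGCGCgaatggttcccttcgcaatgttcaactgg
nearest to nspc-17, chrX:14525838-14525958: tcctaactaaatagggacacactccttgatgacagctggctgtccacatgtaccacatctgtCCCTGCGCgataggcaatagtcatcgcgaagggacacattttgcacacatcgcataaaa
nearest to gtr-1, chrX:806606-806726: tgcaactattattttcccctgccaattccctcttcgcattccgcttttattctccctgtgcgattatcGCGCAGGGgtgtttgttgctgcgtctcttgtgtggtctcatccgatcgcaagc

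Most X summits were found in both replicates, with no overall shift in height between them. Of the 421 X summits, 332 overlapped a peak of replicate 1's own thresholded list and 321 one of replicate 2's. Both lists held 297 of them, 70.5% (Wilson 95% interval 66.0 to 74.7), against 64.1% (62.7 to 65.4) of autosome summits. Neither list held 65 X summits. The 2 sets differ in make-up, since summits at tRNA genes were 29.2% of X summits and 3.71% of autosome summits. Of these tRNA summits, 88.6% on X and 89.7% on autosomes were in both lists. The signal value, the authors' own measure of peak height, had a median log2 ratio of replicate 1 over replicate 2 of 0.02 on X and 0.04 on autosomes, with SDs across summits of 0.37 and 0.41 (407 X summits had both values). No between-group test exists with 1 group of 2 replicates. Peaks and genes are not replicates, so X is described beside the autosomes with counting intervals and with the range over the 5 autosomes, and no p-value is given. The files hold no read counts and the depth of the samples is unknown.

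X held fewer LIN-38 summits than in proportion to its size or its gene content, and so did chromosome V. It makes up 17.7% of the nuclear sequence and 13.7% of protein-coding genes but carried 7.79% (7.10 to 8.53) of nuclear summits. That is 23.8 summits per Mb, while the autosomes together had 60.4 per Mb, 2.54 times as many, and ranged from 36.0 on V to 81.0 on III. Per Mb, X was below every autosome. Set against gene content V was about as low, with 13.9% of summits and 4994 of the 19973 protein-coding genes. Replicate 1's own list placed 8.72% (7.92 to 9.58) of its nuclear peaks on X and replicate 2's list 8.36% (7.58 to 9.21). Even in the long ranked lists, before any threshold, the share was 8.28% in replicate 1 and 8.07% in replicate 2. In the ranked lists that combine both samples it was 7.35% and 7.23%, so a low share was already there among candidate peaks. Of the 100 nuclear summits with the highest signal values, 4 lay on X (interval 1.57% to 9.84%), and of the highest 2000, 178 did, 8.90% (7.73 to 10.2).

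**Figure D1:**
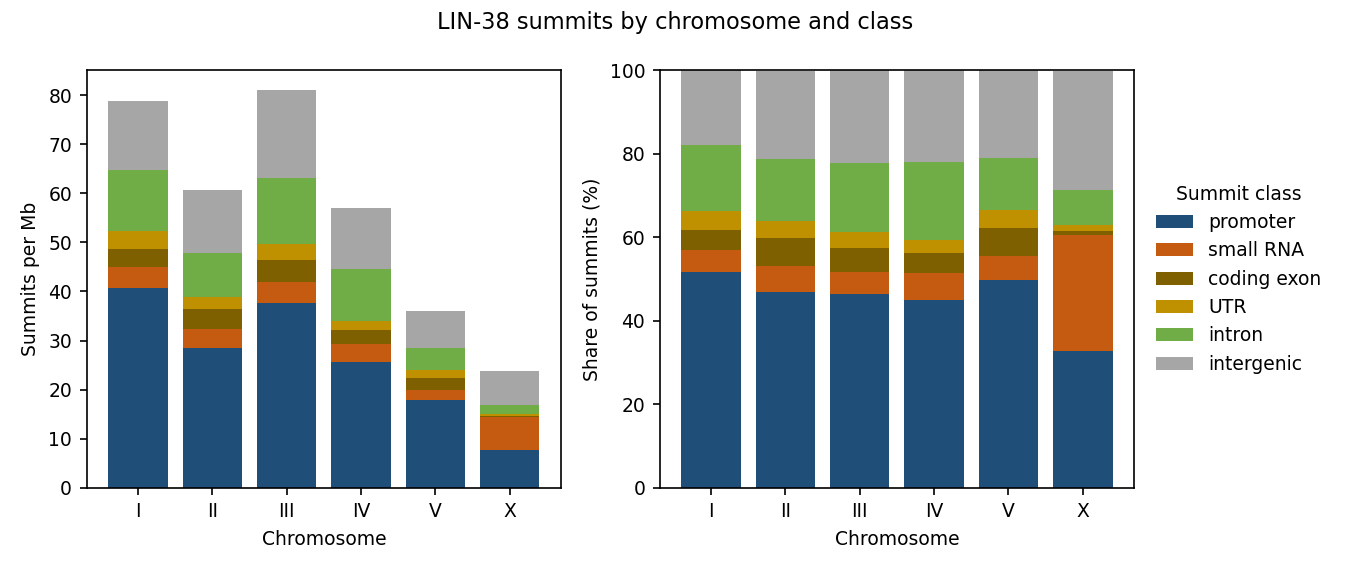
Summits per Mb (left) and percent of summits (right) for each chromosome, stacked by the class of the summit; each summit counts in 1 class. X has the shortest bar on the left, 23.8 per Mb, and on the right a small RNA band of 27.8% that is 5.20% to 6.41% on the autosomes.

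Summits were spread along the whole of X, and 1 Mb stretches of X were mostly sparser than those of autosomes. Full 1 Mb bins of X held 12 to 38 summits, with a median of 21, while the 80 full autosome bins held 15 to 115, with a median of 60.5. Chromosome V came closest, with a median of 35.5, and the X bins with 38 and 36 summits were above that value. The fullest X bin was the ninth from the left end, with 38 summits, of which 22 were at small RNA genes; that bin holds 51 tRNA genes. The emptiest full bin was its left neighbour, with 12 summits, 6 of them in promoter windows, including that of pdi-6. With X cut into 3 equal lengths, the right one had 173 summits, 29.3 per Mb, against 125 in the centre (21.2 per Mb) and 123 on the left (20.8 per Mb). Promoter summits marked 6.34% of genes on the right, 4.61% in the centre and 5.40% on the left. The median gap between neighbouring X summits was 17080 bp, against 4464 bp on autosomes, and 56 of the 420 X gaps were longer than 100 kb. The longest ran over 386616 bp, from the summit at ceh-39 at 1856371 to that at the ribosomal protein gene rpl-11.2 at 2242987.

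**Figure D2:**
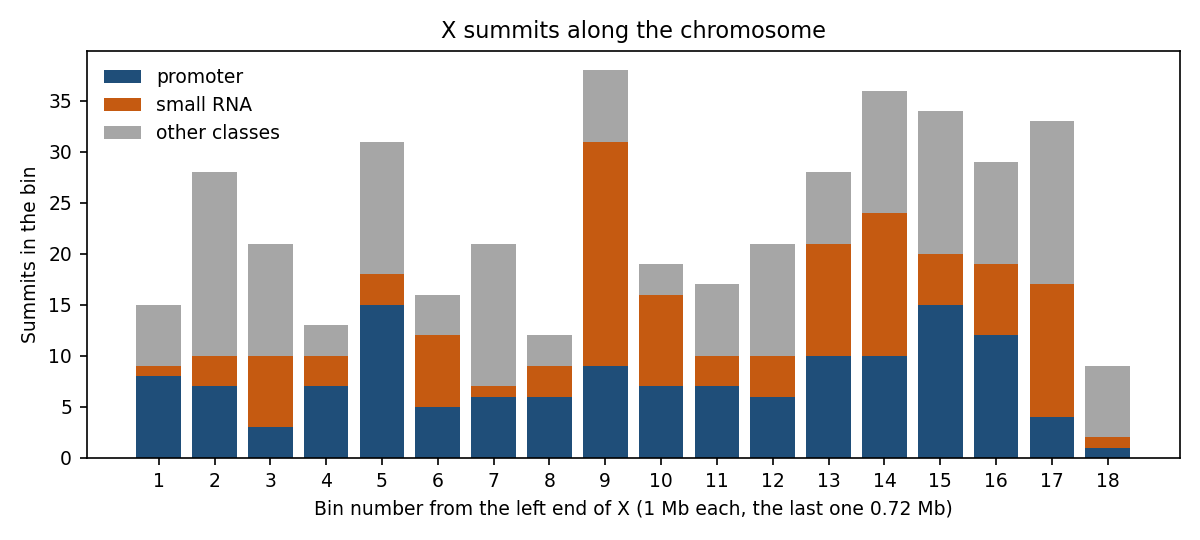
Number of summits in each 1 Mb bin from the left end of X, stacked as promoter, small RNA and all other classes. Bin 9 stands highest with 38 summits, mostly at small RNA genes, and bin 8 is the lowest full bin with 12; the last bin is shorter than the rest.

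The kinds of places that LIN-38 summits marked on X had other proportions than on autosomes. Each summit was given to 1 class, in the order promoter window of a protein-coding gene (500 bp upstream to 200 bp downstream of any annotated 5′ end), within 200 bp of a small RNA gene, coding exon, UTR, intron, intergenic. On X, 138 summits lay in promoter windows, 32.8% (28.5 to 37.4), against 48.0% (46.6 to 49.4) on autosomes, where single chromosomes ranged from 45.0% on IV to 51.6% on I. Small RNA genes accounted for 117 X summits, 27.8% (23.7 to 32.3), against 5.78% (5.16 to 6.46). Intergenic summits numbered 121 on X, 28.7% (24.6 to 33.2), against 20.7% on autosomes. In the classes left for gene bodies X had few: 35 in introns (8.31% against 15.9%), 4 in coding exons (0.95% against 5.62%) and 6 in UTRs (1.43% against 4.03%). By the order of the classes, these counts leave out summits at small RNA genes that lie inside protein-coding genes. On X, 48 tRNA genes inside protein-coding genes had a summit, and on autosomes 114.

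Leaving out summits at tRNA genes brought the promoter shares closer together. Among the 298 X summits away from tRNA genes, 43.0% (37.5 to 48.6) were in promoter windows, against 49.2% (47.7 to 50.6) on autosomes. The density difference, however, was larger away from tRNA genes, with 16.8 such summits per Mb on X and 58.1 on autosomes. Promoter windows cover 13.4% of X and 17.0% of the autosomes. Counted per kb of window, autosomes had 2.92 times as many promoter summits as X, and counted per Mb of chromosome they had 1.97 times as many summits outside promoters. Both kinds of summit were therefore sparser on X.

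Signal values on X were higher than on autosomes at promoters and lower at small RNA genes. The median over all X summits was 253, with quartiles of 140.0 and 481, and the autosome median was 209, with single chromosomes from 196 on V to 220.1 on I. In the replicates' own lists the X median was 145 against 137 in replicate 1 and 161 against 130.4 in replicate 2, and in the higher 50% of conservative peaks it was 447 against 446. Away from tRNA genes the X median was 197 and that of the pooled autosomes 204. Single autosomes then ran from 189 on V to 212 on I, so X lay inside their range. At promoter summits the X median was 368 and the autosome median 282 (256 to 295 over single autosomes), a log2 difference of 0.38. The replicates' own values gave a difference of 0.34 in replicate 1 and 0.41 in replicate 2, so the promoter summits that X has were, at the median, taller than those of each autosome in this list. At small RNA genes X was lower, 305 against 366 (318 to 422), a log2 difference of -0.27. The class differs in make-up, since snoRNA genes had 2 summits on X but 104 on autosomes, with an autosome median of 500. At tRNA genes alone, promoter windows included, the X median was 323 and the autosome one 385. Single autosomes ran there from 316 on V to 449 on IV, so X lay inside their range. X intron summits had a median of 156 and intergenic summits 172, against 143 and 186 on autosomes, values within or next to the range of the single autosomes. The 4 coding exon and 6 UTR summits were all weak, with medians of 121 and 114, and none of these 10 was in both replicates' lists. The signal value is scaled in a way that the sources used here do not state and cannot be read as occupancy.

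**Figure D3:**
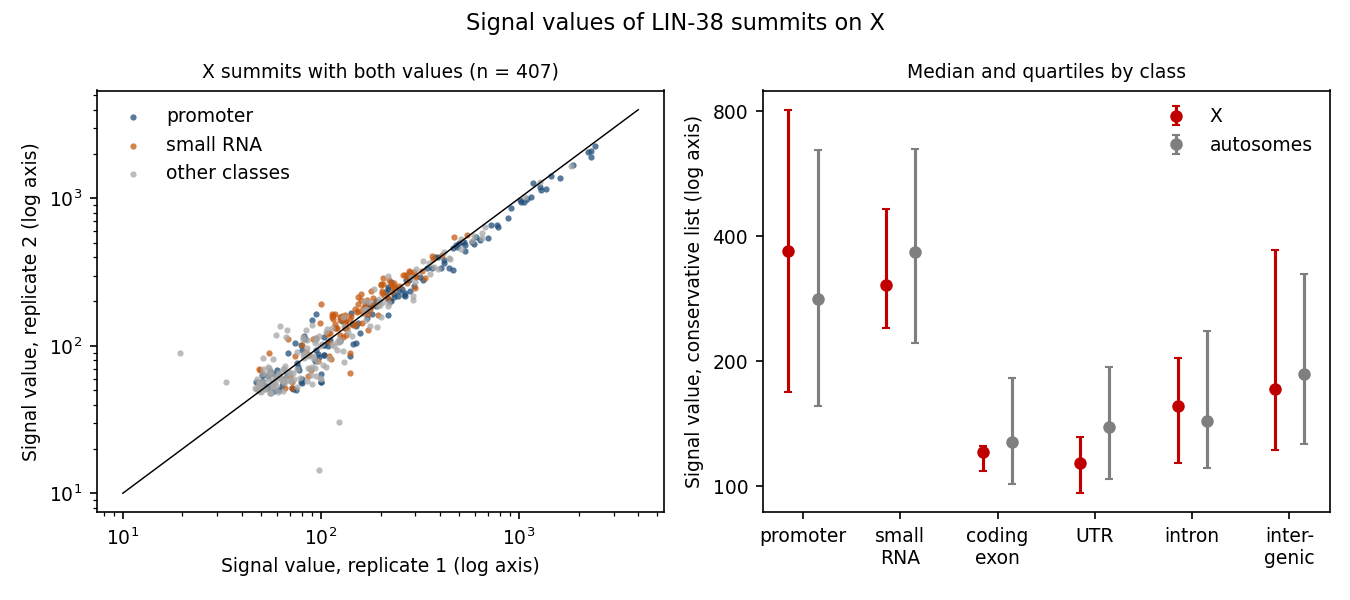
Left, signal value in replicate 2 against replicate 1 for the 407 X summits with a value in both, on log axes, with the line of equal values. Right, median signal value with lower and upper quartiles for each class on X and on autosomes, on a log axis; the X promoter median is 368 and the autosome one 282, while at small RNA genes the order is reversed, 305 and 366.

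Genes with a LIN-38 summit at the promoter were scarce on X. Of 2731 protein-coding genes on X, 148 had a summit in a promoter window, 5.42% (4.63 to 6.33). Over all nuclear protein-coding genes the figure was 14.6%, and on autosomes it was 16.0% (15.5 to 16.6), from 8.77% on V to 24.8% on I. Candidate peaks in the series' ranked lists were also fewer at X promoters. They lay in the promoter window of 628 X genes, 23.0%, and of 44.5% of autosome genes. Among genes with a candidate, 23.4% on X and 35.9% on autosomes had a summit in the conservative list, so both steps were lower for promoters on X. Counted over all nuclear peaks the second step was not lower. The ranked list that holds the conservative peaks had 7.23% of its peaks on X, and the conservative list 7.79%.

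The highest X summit stood at puf-9, which encodes a Pumilio-family RNA-binding protein. Its signal value was 4681 in the conservative list, 2427 in replicate 1 and 2262 in replicate 2, and it ranked 68 among nuclear summits. It lay 281 bp upstream of the 5′ end. Next came a summit shared by trap-2, for a subunit of the translocon-associated complex of the endoplasmic reticulum, and ile-2, for a lectin of the early secretory pathway (4391; 2315 and 2091 in replicates 1 and 2). The protein disulfide isomerase gene pdi-6 followed with 4279 (2228 and 2059), its summit 19 bp upstream. ZC506.1 had 4201, with 2306 in replicate 1 and 1896 in replicate 2. A summit between nmat-1, which encodes an enzyme of NAD synthesis, and ucr-2.1, a core subunit of respiratory complex III, had 3523 (1872 and 1674). In all of these replicate 1 was the higher of the 2 samples, by log2 ratios of 0.10 to 0.28.

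The remaining named promoter summits had signal values from 2958 down to 1755. They included sym-4 (2958), asg-2, for a subunit of ATP synthase, whose summit is shared with the glutamate receptor gene glr-6 (2875), and hst-6, for a heparan sulfate sulfotransferase, shared with rga-8 (2525). Among them were also pix-1 (2467), ppk-3, for a phosphoinositide kinase (2459), and csb-1, the worm homologue of Cockayne syndrome group B, whose summit lay closer to F53H4.4 (2432). The autophagy gene atg-16.1 had 2008 and atf-6, for a transcription factor of the unfolded protein response, 1755. K10B3.5 (2173), rbg-1 (2073), T04F8.2 (1973) and the pair R07E4.3 and R07E4.5 (1962) completed the set. All 20 of the highest X summits lay in both replicates' lists, 17 of them in promoter windows and 3 between genes. At K10B3.5 the summit was 179 bp downstream of the 5′ end, while at the other promoters it was upstream.

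X promoter summits sat farther upstream than those of autosomes. The nearest annotated 5′ end lay a median of 211 bp away, on the downstream side, against 144 bp for autosome summits, and 76 of 138 (55.1%) lay more than 200 bp upstream, against 35.4%. In all, 124 (89.9%) were upstream and 14 downstream, while 83.1% were upstream on autosomes. In a narrow window, from 200 bp upstream to 100 bp downstream, 2.16% of X genes and 8.97% of autosome genes kept a summit. Fewer X summits were shared between genes, 13 of 138 (9.42%) against 23.0%. On both, the shared ones were taller: 1156 against 339 for X summits with 1 gene, and 428 against 242 on autosomes. The median upstream distance depends in part on the window, which reaches farther upstream than downstream, but the window was the same for X and autosomes. Annotated 5′ ends of many worm genes are trans-splice sites rather than transcription starts, so these distances are to the annotation.

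**Figure D4:**
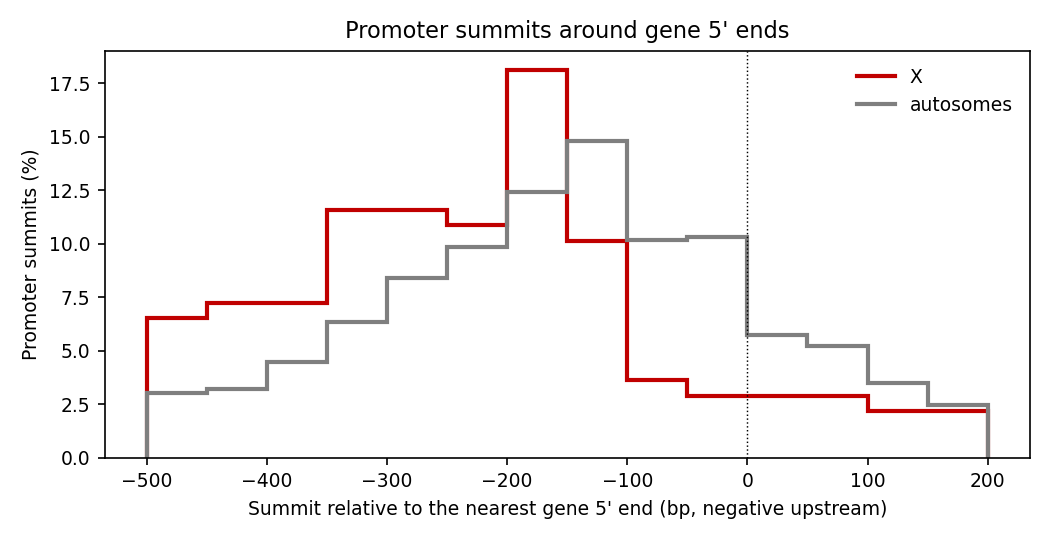
Percent of promoter summits in 50 bp steps of distance to the nearest annotated gene 5′ end (negative is upstream), for the 138 X and 2393 autosome promoter summits. The X curve is highest 150 to 200 bp upstream, at 18.1%, and stays above the autosome curve farther upstream; the autosome curve is highest 100 to 150 bp upstream, at 14.8%.

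Most X genes of mitochondrial energy production had a promoter summit, where 5.42% of all X genes did. Of 6 respiratory chain and ATP synthase genes on X, 5 had a promoter summit, ucr-2.1, asg-2, ucr-2.2 (505), asb-2 (460) and the succinate dehydrogenase gene sdha-1 (433); on autosomes it was 22 of 38 (57.9%). Other lists of basic cell functions are small on X. Of 2 ribosomal protein genes, rpl-11.2 had one (378; 181 in replicate 1 and 191 in replicate 2), and of 3 translation factor genes, eef-1A.2 (392) and ife-2 (186) did. The only splicing gene of the list on X, snrp-40.1, for a U5 snRNP protein, had one at 1416 (770 and 656). The chaperone genes dnj-14 (1156, shared with glit-1) and hsp-3, for an endoplasmic reticulum Hsp70 (934), made 2 of 5. Lists of mitochondrial ribosomal proteins, aminoacyl-tRNA synthetases, proteasome subunits and spermatogenesis genes had no gene on X.

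Vesicle transport genes had summits at 5 of 20 X genes, among them the sorting nexin gene snx-1 (1229) and the exocyst genes sec-15 (791) and sec-3 (787); aps-2 had 296 and rab-14 214. The summit at sec-15 also lay at a tRNA gene. On autosomes the list had 42 of 110 (38.2%). Of 18 X genes for chromatin modifiers, 2 had summits, the sirtuin gene sir-2.2 (584) and chd-3, for a Mi-2-like remodeller (367), against 28 of 69 (40.6%) on autosomes. The cell cycle kinase gene cdk-4 (282) was 1 of 3, against 50 of 96 (52.1%) on autosomes. In the germline list puf-9 was 1 of 5, against 26 of 45 (57.8%) on autosomes, and it entered through its Pumilio-family name. Over all genes the share was 5.42% on X and 16.0% on autosomes. These X lists are small, and 2 of 18 (11.1%) is not below the X share.

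Most genes of families with restricted expression had no promoter summit on X, where 5.42% of all genes had one, or on autosomes, where 16.0% did. With so low a share on X, a count of 0 in a small list says little. None of 34 neuropeptide, 33 chemoreceptor, 30 collagen, 18 F-box, MATH and BTB, 14 detoxification, 3 C-type lectin and 5 vitellogenin genes on X had one, and their autosome shares ran from 0 to 4.86%. Ion channel and transporter genes had 1 of 69, twk-21 (131), against 6.82% on autosomes. The summit at twk-21 also lay inside the tRNA gene T01B4.t3. Ubiquitin conjugation genes had 0 of 7 on X, against 18 of 50 (36.0%) on autosomes, and histone genes 0 of 5, against 19 of 76. Nuclear hormone receptor genes had 4 of 27 on X, 14.8%, against 4.86% on autosomes. The 4 on X were weak: nhr-35 (154), nhr-1 (149), nhr-40 (124) and nhr-71 (108). The summit given for nhr-1 was in both replicates' lists, that for nhr-35 in replicate 1's alone, and those for nhr-40 and nhr-71 in neither. The homeobox list had 2 of 26, ceh-39 and ceh-93 (324), against 9.09% on autosomes, and the muscle list 1 of 15, act-4 (189), against 10.3%.

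Of the genes through which worms count X chromosomes, ceh-39 had a clear summit and the others did not. ceh-39, for a ONECUT homeobox protein that acts as an X-signal element, had 703 in the conservative list, 365 in replicate 1 and 339 in replicate 2, at 199 bp upstream. The X-signal elements fox-1 and sex-1 had none, though fox-1 had a candidate in the ranked lists. No promoter summit was called at xol-1, the switch gene that these elements repress, at sdc-1 or sdc-2, which direct dosage compensation to X, or at tra-4. The synMuv genes lin-15A and lin-15B had none either. Of the 5 X genes that time larval development, alg-1 (118; 72.5 and 50.8 in replicates 1 and 2) and lin-14 (110; 80.2 and 59.5) had weak summits, alg-1 in neither replicate's own list and lin-14 in replicate 1's alone. daf-12, hbl-1 and ain-1 had none, and none was called at the 8 X genes of the vulval signalling pathways. Against 5.42% of all X genes such counts are too small to set these lists apart. On autosomes the counts were 2 of 9 for the timing list, 6 of 26 for the vulval list, 7 of 19 for dosage compensation and sex determination and 13 of 22 for synMuv and DREAM genes.

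The tRNA genes held the second large share of X summits. X carries 276 of the 612 annotated nuclear tRNA genes, 45.1%, and 133 of these had a summit within 200 bp, 48.2% (42.4 to 54.1). Over all nuclear tRNA genes the figure was 54.2%, and on autosomes 59.2% (53.9 to 64.3), from 38.5% on V to 70.3% on III. The share of tRNA genes with a summit on X thus lay inside the range of the autosomes, but only V was lower. I had 68.2%, II 66.7% and IV 57.8%. X tRNA genes with a summit were, however, more numerous than those of any autosome. They were marked by 123 summits, 29.2% of X summits against 3.71% on autosomes, and 106 of the 123 lay inside the gene. The highest was at the alanine tRNA genes F15G9.t1 and F15G9.t2, with 1119 (546 in replicate 1 and 567 in replicate 2). Next were M02F4.t1 and M02F4.t2, for glycine and glutamate, with 1006 (470.4 and 545), and the leucine gene C04A11.t1 with 841 (409 and 410.1). F41D9.t3, for asparagine, had 789, and a value of 388 in replicate 2; no replicate 1 peak was matched to it. C33G3.t2, for lysine, had 789 (365 and 410).

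The 2 highest tRNA summits were higher in replicate 2, while the 5 highest promoter summits were higher in replicate 1. Over all 123, the median was 154 in replicate 1 and 169 in replicate 2, and 109 were in both lists. At least 1 gene of each amino acid group had a summit. Among groups of 10 or more X genes, the bound share ran from 8 of 27 for arginine to 12 of 18 for serine, with glycine and proline at 12 of 20 each. X tRNA genes inside protein-coding genes had summits at 48 of 96 and those outside at 85 of 180.

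Many tRNA genes are exact copies of one another, so a summit cannot always be credited to 1 copy, and how reads that match several places were handled is not given in the sources used here. On X, 219 tRNA genes share their whole sequence with another tRNA gene and 57 do not. Of the first, 113 had a summit, 51.6% (45.0 to 58.1), and of the second 20, 35.1% (24.0 to 48.1). On autosomes the same shares were 67.2% (61.2 to 72.7) of 250 and 36.0% (26.7 to 46.6) of 86. Among genes of unique sequence X and autosomes were thus alike in value, with wide intervals.

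Other small RNA genes on X were rarely bound. Of 33 snoRNA genes, 2 had a summit, 6.06% (1.68 to 19.6), while all nuclear snoRNA genes had 29.2% and the single autosomes 22.2% to 36.4%. The pair were D2021.6, 21 bp from the summit that also serves the sdha-1 promoter (433; 233 and 215 in replicates 1 and 2), and K09E9.5 (188; 91.8 and 112). Of 74 microRNA genes 3 did, 4.05% (1.39 to 11.3), against 8.81% of all and 6.12% to 14.8% on single autosomes. They were mir-54 (253; 130 and 115), mir-1829c (242; 140.4 and 89.6) and mir-8196a (162; 87.3 and 86.6). The summit given here for mir-1829c lay inside the valine tRNA gene F39B1.t1, 177 bp from mir-1829c. For mir-54 the distance was 188 bp and for mir-8196a 16 bp. X has 3 snRNA genes, none with a summit, against 38.8% of all snRNA genes, and no rRNA gene of the annotation lies on it.

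**Figure D5:**
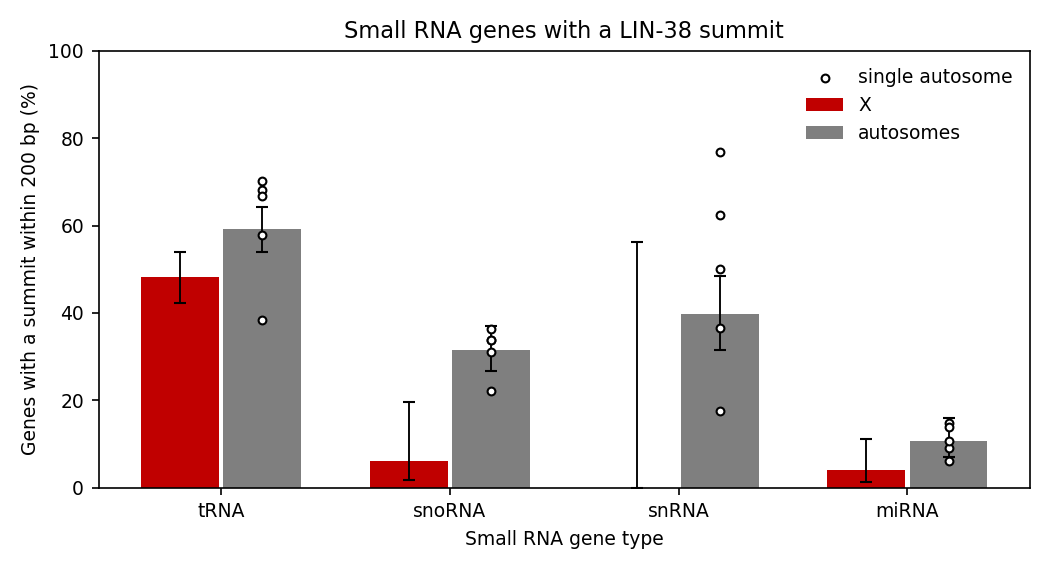
Percent of tRNA, snoRNA, snRNA and microRNA genes with a summit within 200 bp, on X and on all autosomes (bars, with Wilson 95% intervals) and on each autosome (open circles). The X bar for tRNA genes, 48.2%, lies within the circles but above that of V alone. The X bar for snoRNA genes, 6.06%, lies below all of them, and no X snRNA gene of 3 had a summit.

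The 166 X summits outside promoter windows and away from small RNA genes were farther from genes than on autosomes. Their median distance to the nearest 5′ end was 1902 bp, against 1329 bp, and 20 (12.0%) were beyond 5 kb, against 6.38%. The strongest stood among the highest on X. The summit nearest to tmem-184, 1513 bp upstream, had 3472 (1831 in replicate 1 and 1659 in replicate 2), and the one nearest to F10D7.5, 748 bp upstream, had 2555 (1280 and 1302). Next came the first summit from the left end of X at 59267 and 11501 bp from the nearest 5′ end, that of Y73B3A.20, had 2108 (1070 and 1022). The next lay 4872 bp upstream of dyf-6 (1323) and 6039 bp upstream of K02D3.1 (1224). In introns the highest had its nearest 5′ end at cest-16 (988; 509 and 453), followed by Y41G9A.17 (756), pccb-1 (344), tsp-21 (264) and nhr-3 (227). The 5 highest UTR summits, from 138 to 94.8, and the 4 coding exon summits, nearest to dhs-28 (137), vem-1, hpo-34 and C42D8.9, were far lower. The UTR ones lay nearest to T02C5.1 (with 2), syx-2, sams-1 and B0302.5.

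A set of these distal summits shared the recruitment core GCGCAGGG. It was found, on either strand, in the 100 bp window at 12 X summits, 2.85% of 421. Of all 100 bp windows of X 72 in 177189 held it, 0.0406%, of autosome summits 1 in 4984 and of all autosome windows 0.0257%. The 12 summits were in 11 regions, 9 were intergenic and 3 intronic, and none was at a promoter or a small RNA gene. The peaks of all 12 overlapped both replicates' lists. Their signal values had a median of 673 and ran from 156 to 1193. The summit with 156, nearest to Y41G9A.17, had 98.0 in replicate 1 and 14.4 in replicate 2. It shares its peak interval with a taller summit (756), so the overlap cannot be credited to it alone. The highest lay nearest to W02H3.3 (1193; 648 and 538 in replicates 1 and 2), nspc-17 (1178; 590.4 and 559) and gtr-1 (1098; 578 and 518), whose sequences stand above. F20B6.9 (1034), cest-16 (988) and ins-39 (591) were nearest to others, and 1 lay 4863 bp upstream of xol-1 (586; 290.3 and 218). The peak of the summit upstream of xol-1 also spans the tRNA gene C18A11.t2, which has a summit of its own (325). Classes go by the summit, so this one counted as intergenic. The core was 6 to 34 bp from the summit in these windows. Seen from the sequence, X has 81 occurrences of the core, 4.57 per Mb, and autosomes 233, 2.82 per Mb. A conservative summit lay within 100 bp of 20 of the 81 on X, 24.7%, and of 8 of the 233 on autosomes, 3.43%. On III it was 6 of 46, 13.0%, and on every other autosome 3.23% or less. Candidate peaks in the ranked list that holds the conservative peaks were as close to 23 of 81 (28.4%) and 42 of 233 (18.0%). Single autosomes ran from 7.81% on V to 37.0% on III (17 of 46), so for candidates III was above X. A match is a run of letters only, and binding of the dosage compensation complex was not measured here.

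Other short patterns were counted in the same windows on both strands. The core of box B of polymerase III promoters, GGTTCGA, was in 67 X windows, 15.9%, of which 57 were small RNA summits (48.7% of that class). Autosome summits had it at 3.49%, autosome small RNA summits at 29.9%, and all X windows at 0.638%. The pattern GCGCNNTTG, added after the sequences had been read, was at 15 of the 20 highest X summits, the set from which it came. Without those 20 it was at 20 of 121 X promoter summits, 16.5% (11.0 to 24.2), a count also added after the data were seen. Autosome promoter summits had it at 16.8%, but that set keeps its highest summits, so these shares are of unlike sets. Over all X promoter summits, those it came from included, the pattern was at 33 of 138, 23.9%. It was at 1 of 117 X small RNA summits, at 2.86% of X intron summits against 21.9% of autosome ones, and at 0.489% of all X windows. CTGCGTCT was at 4.99% of X and 5.92% of autosome summits, against 0.275% of X windows, and at 12 X promoter summits (8.70%). TTTGAA, the cell cycle element that the MuvB subunit LIN-54 is known to bind, was less frequent at summits than in sequence at large, 13.8% on X and 22.0% on autosomes against 29.0% of X windows. At promoter summits it was at 8.70% on X and 23.4% on autosomes. The E2F-like GCGCGAAA was at 4 X summits, all promoters (2.90% of them, against 2.93% on autosomes and 0.234% of X windows). GGCGGGAA was at 3, and all X windows had it at 0.281%. Of the other patterns searched, GAGAGAGA was at 1.19% of X summits and 3.09% of autosome summits (0.552% of X windows), and GGGCGG at 5.94% and 5.08% (1.20%). Patterns rich in A and T were less frequent at X summits than in X windows: TATAAA at 4.75% against 12.0%, TTTCAG at 5.23% against 16.9% and TTTTTTTT at 4.04% against 11.6%; autosome summits had 6.42%, 10.8% and 6.80%. The G and C content of these windows moved with the classes: its median was 51.0% at X promoter summits, 45.0% at autosome promoter summits and 35.0% in all windows of X and of autosomes. Its part in the pattern counts was not tested.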

How the data were processed

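The authors deposited 8 peak lists on ce11: per the labels, 2 for each sample (ranked and thresholded) and 4 that combine both samples, of which 1 is called conservative. The deposited signal value is the authors' peak height, whose scaling is not stated, and the deposited score is a scaled irreproducible discovery rate, capped at 1000. Neither aligner nor peak caller is given in the sources used here, and depth is unknown.

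Nuclear peaks of the conservative list were the main set. Summits were placed in Ensembl release 115 genes on WBcel235, the same assembly, with Python 3.11.15, numpy 2.4.6 and pandas 2.3.3. tRNA amino acids are from RefSeq and matched all but 5 tRNA genes. The value of a replicate is that of the overlapping peak with the nearest summit in its own ranked list. Patterns were counted in 100 bp windows. Wilson 95% intervals cover counting error only. The class assignment was tested on simulated positions with known answers. Named are the 20 highest X summits that are in both replicates, the 5 highest of each class, X genes of 31 lists with a summit, and small RNA genes other than tRNA. Some name patterns of these lists were corrected after their members had been seen. The members and lists were chosen with earlier results of these data known. Alternatives covered the peak list, each replicate alone, strength, replicate overlap, summits per region, promoter window, gene assignment, class order and distance to small RNA genes.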

Additional observations from a re-analysis of the deposited data

How the results depend on the processing

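Leaving out summits at tRNA genes, listed in the report, put the X median of signal value below that of the pooled autosomes, 197 against 204. It was then inside the range of single autosomes, 189 to 212. The other settings below left X on the same side of the autosomes for the share of summits, the density, the promoter share, the share of genes, the small RNA share, the share of tRNA genes and both medians of signal value. With 1 replicate at a time, X held 8.36% to 8.72% of nuclear summits, a density of 0.425 to 0.445 of the autosomes' (0.394 with the conservative list), a promoter share of 31.8% to 32.1%, 4.65% to 4.98% of genes, a small RNA share of 31.6% to 35.0% and 51.1% to 52.5% of tRNA genes. The log2 difference of median signal value (0.28) was then 0.0795 to 0.30, the lower one with replicate 1 alone, and that of promoter summits (0.38) 0.39 to 0.41. In the higher 50% of peaks by signal value these were 8.88%, 0.454, 3.66% of genes, 39.6%, 41.3%, 0.0017 and 0.24. Peaks in both replicates gave 4.25% of genes, a small RNA share of 35.0%, and log2 differences of 0.078 and 0.27; with an overlap of 50% of the peak these were 4.14%, 34.7%, 0.050 and 0.24, with 40.9% of tRNA genes. The promoter difference was 0.37 in the other thresholded list, 0.35 with 1 summit per region, 0.43 with small RNA genes taken first and 0.65 in the narrow window (200 bp upstream to 100 bp downstream). That window held 13.3% of X summits and marked 2.16% of genes (28.2% and 8.97% on autosomes), and the wide one (1000 bp upstream) 42.3% and 6.85% (57.5% and 19.1%). A distance of 500 bp gave 54.7% of X tRNA genes. The cause of these shifts was not tested. No paired analysis was possible because there is 1 group. The unknown depth, the unstated scaling of the signal value and the handling of reads from repeated genes limit what heights and tRNA summits can show; control libraries and X copy number were not analysed here.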
